A study of Mus musculus with 24 samples.

Results

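H3K4me2, a histone mark of active promoters and enhancers, was set against H3K27me3, the repressive mark of the Polycomb complex PRC2, in 2 mouse small cell lung cancer lines that carry a Kdm6a mutation. The members are the 4 peak lists of these lines, chosen by mark and line: H3K4me2 and H3K27me3 in 236L, and H3K4me2 and H3K27me3 in 236R. They are 4 of the 24 samples of the series, of which the 14 with a peak list were used and the 10 inputs were not analysed here. Some input titles join sgCTRL to the names 236L and 236R, whereas the titles of the 4 members give sgKDM6A. Both lines were grown at early passage from tumours of the sgKdm6a RPP mouse model, which loses Rb1, Trp53 and Rbl2 and has a guide RNA against Kdm6a. The control lines 159-1 and 1014 came from sgControl RPP tumours, with the same 3 losses, a control guide RNA and intact Kdm6a. All 4 lines received no treatment, were kept in HITES medium with serum in ultra-low attachment plates, and were collected the day after plating. The labels do not say whether 236L and 236R came from separate animals, and each line gave 1 library per mark. The title of the series names KDM6A as a regulator of subtype plasticity, and the question here is where the active and the Polycomb mark meet in the mutant lines.

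H3K27me3 is written by EZH2 within PRC2 and is read by PRC1, and genes that carry it are usually silent. KDM6A (UTX) removes it, and also belongs to the COMPASS-like complexes of KMT2C and KMT2D, which methylate H3K4 at enhancers. Promoters with both H3K4 methylation and H3K27me3, called bivalent, are known from embryonic stem cells, where they often belong to developmental regulators with CpG-rich promoters. Small cell lung cancer is a neuroendocrine tumour with subtypes named after transcription factors, NEUROD1 and POU2F3 among them. A peak list from many cells cannot tell both marks on 1 nucleosome from 1 mark in some cells or on 1 allele and the other mark elsewhere.

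Promoters from RefSeq (GRCm38.p6) show which sequences the classes described here stand for, as 1 example per class. A promoter is the 300 bases from 250 before to 50 after a gene start, and it has a mark where peaks cover at least 150 of them. Chga (chr12:102554691-102554990, plus strand), which encodes the neuroendocrine granule protein chromogranin A, had both marks in 236L and H3K4me2 only in the other 3 lines. Hoxa3 (chr6:52213018-52213317, minus strand), a body-axis homeobox gene, had both marks in both mutant lines and H3K27me3 only in both control lines. Cdkn1b (chr6:134920151-134920450, plus strand), the gene of the cell cycle inhibitor p27, had H3K4me2 only in all 4 lines. Krt12 (chr11:99422210-99422509, minus strand), a keratin gene of the cornea, had H3K27me3 only in all 4 lines. Capitals mark CG dinucleotides, which read CG on both strands.
Chga: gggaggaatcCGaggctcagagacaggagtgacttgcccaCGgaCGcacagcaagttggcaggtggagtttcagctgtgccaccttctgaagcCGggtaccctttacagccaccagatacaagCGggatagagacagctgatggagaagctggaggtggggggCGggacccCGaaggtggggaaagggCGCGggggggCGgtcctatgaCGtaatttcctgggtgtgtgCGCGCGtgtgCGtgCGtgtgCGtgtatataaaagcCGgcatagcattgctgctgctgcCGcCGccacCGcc
Hoxa3: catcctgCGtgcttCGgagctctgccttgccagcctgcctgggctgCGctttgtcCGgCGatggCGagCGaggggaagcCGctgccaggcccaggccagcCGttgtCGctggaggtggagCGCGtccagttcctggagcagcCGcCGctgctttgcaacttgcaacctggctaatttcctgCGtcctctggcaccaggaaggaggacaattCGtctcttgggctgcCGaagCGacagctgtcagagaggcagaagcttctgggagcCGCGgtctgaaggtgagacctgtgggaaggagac
Cdkn1b: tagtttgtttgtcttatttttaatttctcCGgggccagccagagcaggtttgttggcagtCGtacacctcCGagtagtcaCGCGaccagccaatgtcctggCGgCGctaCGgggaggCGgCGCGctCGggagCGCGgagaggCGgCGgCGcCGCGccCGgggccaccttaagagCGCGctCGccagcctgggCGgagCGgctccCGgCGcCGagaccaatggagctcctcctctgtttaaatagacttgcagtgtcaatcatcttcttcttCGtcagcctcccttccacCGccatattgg
Krt12: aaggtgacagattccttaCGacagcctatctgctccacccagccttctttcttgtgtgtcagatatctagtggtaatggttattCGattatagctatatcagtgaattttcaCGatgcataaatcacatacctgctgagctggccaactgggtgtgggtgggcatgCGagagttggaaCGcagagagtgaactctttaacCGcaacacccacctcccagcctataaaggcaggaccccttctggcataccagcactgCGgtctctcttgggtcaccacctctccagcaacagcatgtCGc
The first 3 held 21, 20 and 30 CG dinucleotides in the order printed, and Krt12 held 8. Over all 21263 promoters of the table, which cover 17492 genes, the median was 13, and 56.8% held 10 or more. Promoters with both marks had a median of 21 in 236L and 19 in 236R, beside 21 for promoters with H3K4me2 only in each line. Promoters with H3K27me3 only had a median of 7 in 236L and 5 in 236R, and those with neither mark 3 in each line. Thus 90.2% of the 1345 both-mark promoters of 236L and 85.7% of the 630 of 236R held 10 or more, against 26.0% and 15.8% of the promoters with H3K27me3 only. The control lines had medians of 22 in 159-1 and 21 in 1014 for both marks, and 7 in 159-1 and 6 in 1014 for H3K27me3 only.

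The lists differed in length, and this touches every count. H3K4me2 had 47141 peaks over 76.1 Mb in 236L and 45544 over 73.7 Mb in 236R, against 58368 over 85.2 Mb in 159-1 and 56481 over 87.6 Mb in 1014. H3K27me3 had 10039 peaks over 13.8 Mb in 236L and 25230 over 30.5 Mb in 236R, against 31655 over 45.4 Mb in 159-1 and 52080 over 110.3 Mb in 1014. The H3K27me3 peaks of 236R were also the weakest, with a median −log10 q of 1.59, against 2.03 in 236L, 1.84 in 159-1 and 1.89 in 1014. The files hold no read counts, so depth is unknown. The deposited H3K4me2 lists of the control lines carry the name of the other control line, so for this mark 159-1 and 1014 are given by sample label and could be exchanged. Peak cover gave no check of the mutation: H3K4me2 covered 6.01 kb of the Kdm6a window (gene body with 10 kb each side) in 236L and 4.66 kb in 236R, against 3.10 kb in 159-1 and 4.38 kb in 1014.

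About 3 in 5 genes of each mutant line had H3K4me2 without H3K27me3, and genes with H3K27me3 alone were rare. A gene was given a mark where its peaks cover at least 1 kb of its window, over 21887 protein-coding genes. In 236L, 13292 genes (60.7%) had H3K4me2 only, 225 (1.03%) H3K27me3 only, 3046 (13.9%) both and 5324 (24.3%) neither. In 236R the numbers were 13334 (60.9%), 693 (3.17%), 2961 (13.5%) and 4899 (22.4%). With or without H3K4me2, H3K27me3 was present at 3271 genes (14.9%) in 236L and 3654 (16.7%) in 236R, against 3556 (16.2%) in 159-1 and 5565 (25.4%) in 1014, so most of its genes also had H3K4me2. H3K4me2, with or without H3K27me3, was present at 74.6% of genes in 236L and 74.5% in 236R, against 73.5% in 159-1 and 73.3% in 1014. The control lines had H3K27me3 only at 1030 genes (4.71%) in 159-1 and 1429 (6.53%) in 1014, and both marks at 2526 (11.5%) and 4136 (18.9%) in the same order. Genes with H3K27me3 only averaged 459 ± 331 in the mutant lines and 1230 ± 282 in the control lines (SD, n = 2 each; exact two-sided permutation test, p = 0.333). This is the smallest p that 2 lines against 2 can give, so no comparison of the groups here can pass 0.05. Genes with both marks averaged 3004 ± 60.1 in the mutant lines and 3331 ± 1138 in the control lines (SD, n = 2 each; exact permutation p = 1.0). The sign of this last difference turned in gene bodies alone (14.5 more in the mutant lines), near gene ends (143.5 more), with lists of equal length (1414.5 more) and without 1014 (477.5 more).

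The 2 mutant lines placed 17349 genes (79.3%) in the same class, and the 2 control lines 18874 (86.2%). Both mutant lines had H3K4me2 only at 11370 genes (51.9%), both marks at 1439 (6.57%), H3K27me3 only at 93 (0.425%) and neither at 4447 (20.3%). Both control lines had these classes at 11607 (53.0%), 2229 (10.2%), 852 (3.89%) and 4186 (19.1%) genes. The 1439 genes with both marks are 47.2% of those of 236L, and 1566 more (51.4%) had H3K4me2 only in 236R. The 93 with H3K27me3 only are 41.3% of those of 236L, against 85.5% for H3K4me2 only and 83.5% for neither mark. In the other direction, 1374 genes with both marks in 236R had H3K4me2 only in 236L. Both marks in 236L with H3K4me2 only in the other 3 lines occurred at 1040 genes (4.75%), and the like for 236R at 325 (1.48%). The shared counts lean on the cutoff: at q of 0.001 or lower, both mutant lines had both marks at 167 genes and H3K27me3 only at 1.

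In 1 kb bins a larger share of the H3K27me3 bins also had H3K4me2 in 236L than in any other line, and 236L had the fewest H3K27me3 bins. A bin has a mark where peaks cover at least 50% of it. In 236L, 67444 bins had H3K4me2 only, 7786 H3K27me3 only and 5148 both. In 236R the numbers were 67535, 24650 and 3266. Of all H3K27me3 bins, 39.8% in 236L and 11.7% in 236R also had H3K4me2, against 5.45% in 159-1 and 4.54% in 1014. Both mutant lines lay above both control lines, with means of 25.8% ± 19.9 and 4.99% ± 0.643 (SD, n = 2 each; difference 20.8 percentage points, exact permutation p = 0.333), and the difference is 6.71 points without 236L and 34.8 points without 236R. With lists of equal covered length the shares were 39.6% in 236L and 15.8% in 236R, against 8.62% in 159-1 and 11.9% in 1014. Seen from H3K4me2, 7.09% of its bins in 236L and 4.61% in 236R had H3K27me3, against 2.86% in 159-1 and 5.71% in 1014, so the groups overlap on that measure.

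**Figure D1:**
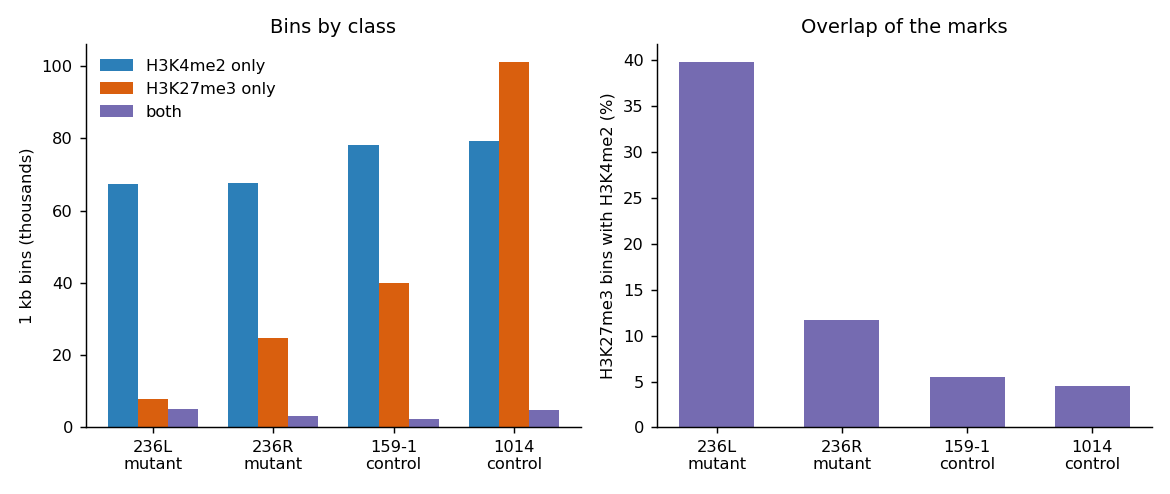
Left, 1 kb bins with H3K4me2 only, H3K27me3 only or both marks in each line; right, the percentage of H3K27me3 bins that also have H3K4me2. Bars are 1 library per mark and line, with no error bar. H3K27me3-only bins are fewest in 236L (7786), where the share with H3K4me2 is 39.8%.

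In the lists as deposited, the number of bins with both marks did not separate the groups: 5148 in 236L and 3266 in 236R, against 2309 in 159-1 and 4804 in 1014 (difference 650.5, exact permutation p = 0.667). The sign turned without 236L (−290.5), without 159-1 (−597) and at q of 0.001 or lower (−613). With lists of equal covered length both mutant lines lay above both control lines. The counts were then 5124 in 236L and 2060 in 236R, against 1146 in 159-1 and 1635 in 1014. Both mutant lines shared 1614 bins with both marks, 41944 with H3K4me2 only and 2758 with H3K27me3 only. Runs of both-mark bins were short, with a median of 1 kb in each mutant line, and 35 runs in 236L and 30 in 236R reached 5 kb.

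Bins with both marks differed between 236L and 236R in position and in the other marks they carried. Within 2.5 kb of a gene end lay 67.8% of them in 236L and 59.2% in 236R, against 31.6% and 17.3% of the bins with H3K27me3 only and 6.70% of all bins. H3K4me1, a mark of enhancers, covered 62.9% of the both-mark bins in 236L and 87.3% in 236R, against 72.5% in 159-1 and 52.9% in 1014. For that mark 236L thus lay between the control lines. KDM6A itself was mapped in the control lines only, and 25.1% of the both-mark bins of 236L and 6.71% of those of 236R were KDM6A peaks in both controls. The both-mark bins of the control lines gave 8.96% in 159-1 and 8.99% in 1014 for the same KDM6A peaks. Counted from KDM6A, 8.88% of its 16297 shared bins had H3K27me3 in 236L and 1.56% in 236R, against 1.50% in 159-1 and 3.0% in 1014. The control state of these places differed as well: 36.4% of the both-mark bins of 236L had H3K4me2 only in both control lines and 15.0% H3K27me3 only, whereas for 236R these were 8.30% and 30.0%.

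Around gene starts, H3K27me3 had a higher summit over lower flanks in 236L than in 236R. Of genes with both marks, 2295 in 236L and 2235 in 236R have a start in the promoter table. In the 500 bp step just after the start, H3K27me3 marked 52.2% of these genes in 236L and 32.7% in 236R, and 9.75 kb upstream it marked 6.88% in 236L and 16.5% in 236R. H3K4me2 in the step just after the start marked 82.1% in 236L and 74.0% in 236R. Where a gene had both marks, a bin with both lay in its window in 85.1% of cases in 236L and 55.1% in 236R, against 54.5% in 159-1 and 54.9% in 1014. In 236R, as in the control lines, a gene with both marks thus often had them at separate places.

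**Figure D2:**
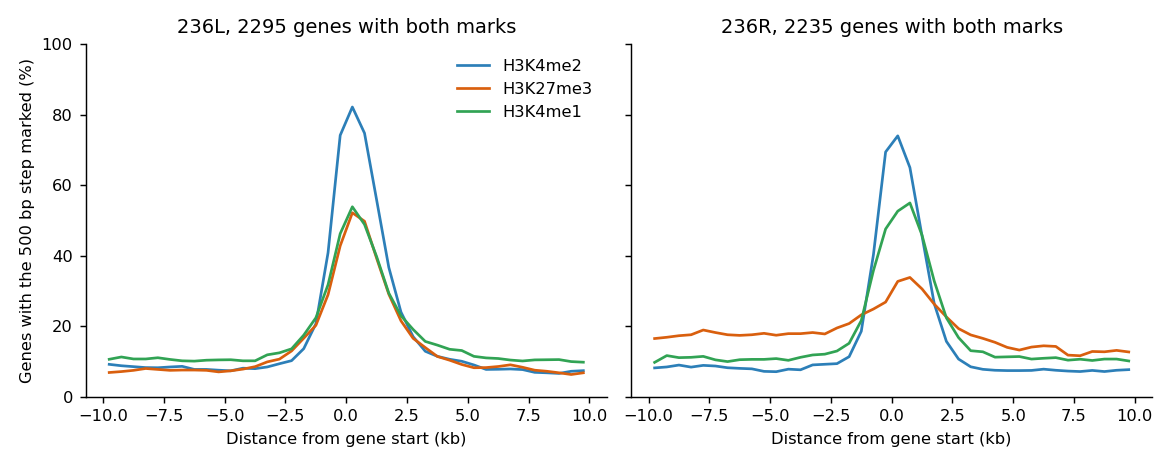
Percentage of genes with both marks whose 500 bp step is marked by H3K4me2, H3K27me3 or H3K4me1, by distance from the gene start in kb, in 236L and in 236R. Lines are 1 library each. H3K27me3 reaches 52.2% just after the start in 236L and 32.7% in 236R.

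HOX genes, the homeobox genes that set position along the body axis, nearly all had both marks in the mutant lines. The members and lists were known to differ in these data when they were chosen, so their counts are descriptions. Both marks were present at 38 of 39 in 236L and 38 of 39 in 236R, against 11 in 159-1 and 10 in 1014, beside 13.9%, 13.5%, 11.5% and 18.9% of all genes in the same order of lines. The remaining gene, Hoxb1, had H3K27me3 only in 236L and neither mark in 236R. H3K27me3 with too little H3K4me2 to count was the state of 21 of 39 in 159-1 and 22 in 1014, and 17 had it in both control lines and both marks in both mutant lines. That last pattern was found at 110 of the 21887 genes. Taking gene bodies alone, 21 HOX genes had both marks in both mutant lines, and at q of 0.001 or lower there were 25. The HOX genes lie side by side in the Hoxa, Hoxb, Hoxc and Hoxd clusters. Windows of neighbours overlap except at Hoxb13, and that of Hoxa3 takes in Hoxa4, Hoxa5 and Hoxa6. The 39 are therefore not separate sites.

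Genes of the Hoxa, Hoxc and Hoxd clusters had H3K27me3 in every line, and for every one the H3K4me2 length of both mutant lines lay above that of both controls. Hoxa3 had 20.1 kb of H3K4me2 in 236L and 17.4 kb in 236R, against 1.78 kb in 159-1 and 0.571 kb in 1014. Its H3K27me3 covered 46.5 kb in 236L and 61.0 kb in 236R, against 59.1 kb in 159-1 and 64.0 kb in 1014. H3K4me2 in both mutant lines lay above both controls, while for H3K27me3 the groups overlap. Hoxa9, which specifies posterior identity, had 11.4 kb of H3K4me2 in 236L and 8.70 kb in 236R, against 0.620 kb in 159-1 and 0.571 kb in 1014, with H3K27me3 between 21.3 and 24.3 kb in all 4 lines. Over the whole Hoxa cluster (chromosome 6, 105.5 kb), both marks overlaid the same bases over 31.4% in 236L and 28.1% in 236R, against 3.27% in 159-1 and 1.45% in 1014. The Hoxc cluster gave 20.3% and 18.7%, against 1.33% and 3.05%, and the Hoxd cluster 17.6% and 17.8%, against 3.44% and 2.76%, with the lines in the same order.

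The Hoxb cluster (chromosome 11) differed from the other 3 and between the mutant lines. Its genes Hoxb2 to Hoxb7 had H3K4me2 and no H3K27me3 in the control lines and both marks in both mutant lines. Hoxb3 had 51.0 kb of H3K27me3 in 236L and 7.88 kb in 236R, against 0 kb in both control lines. Its H3K4me2 ran the other way, with 19.5 kb in 236L and 59.4 kb in 236R, against 47.4 kb in 159-1 and 59.3 kb in 1014. In 236L the Polycomb mark thus covered most of the window, whereas 236R had H3K4me2 as long as in the controls beside a short stretch of H3K27me3. Hoxb8 was alike, with 22.7 kb of H3K27me3 in 236L and 8.09 kb in 236R, against 1.99 kb in 159-1 and 1.62 kb in 1014. Hoxb13 resembled the other clusters, with 18.8 kb of H3K27me3 in each mutant line, against 20.5 kb in 159-1 and 22.3 kb in 1014.

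**Figure D3:**
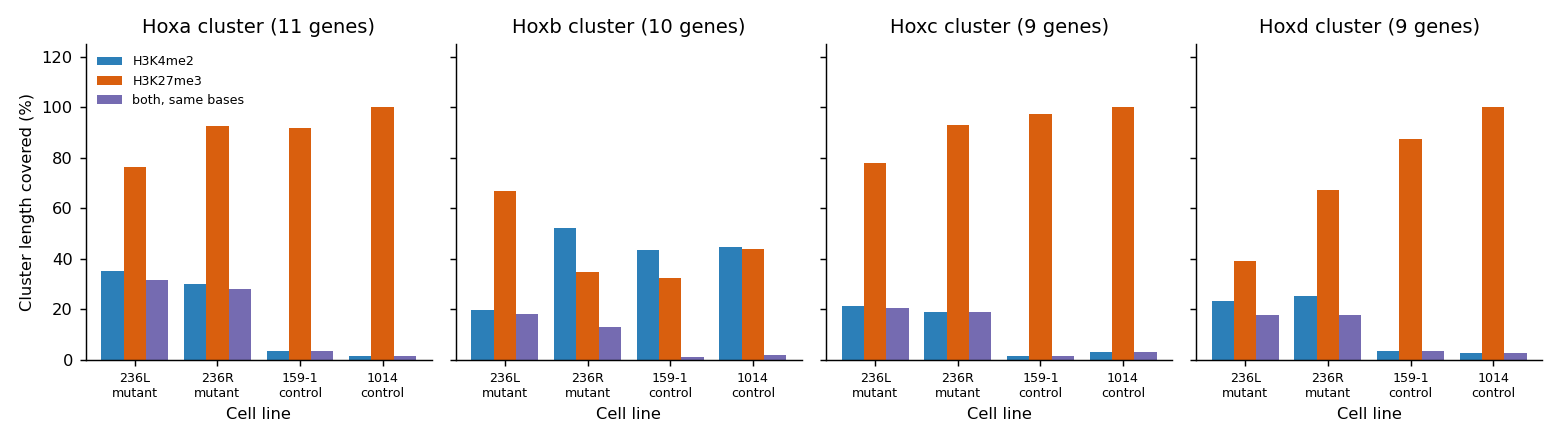
Percentage of each HOX cluster covered by H3K4me2, by H3K27me3 and by both on the same bases, per line, 1 library per mark. In Hoxa both marks overlay 31.4% in 236L and 28.1% in 236R, against 3.27% in 159-1 and 1.45% in 1014; in Hoxb, H3K27me3 covers 66.7% in 236L and 34.7% in 236R, against 32.5% in 159-1 and 43.7% in 1014.

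Other developmental transcription factors had both marks at 49 of 51 in 236L and 35 of 51 in 236R, against 31 in 159-1 and 37 in 1014, where 13.9% of all genes in 236L and 13.5% in 236R had both, against 11.5% in 159-1 and 18.9% in 1014. Developmental ligands of the WNT, BMP, FGF and Hedgehog families had both at 20 of 22 in 236L and 16 in 236R, against 13 in 159-1 and 18 in 1014, beside the same shares of all genes. For both lists 236L lay above both control lines and 236R between them. Of the transcription factors, 8 had both marks in 236L and H3K4me2 only in the other 3 lines, among them Tbx1, of the pharyngeal arches, with 9.52 kb of H3K27me3 in 236L and 0 kb in the other 3. Of all genes, 1040 (4.75%) had both marks in 236L and H3K4me2 only in the other 3 lines. En1, a midbrain homeobox gene, had 7.65 kb of H3K4me2 in 236L and 7.19 kb in 236R, against 1.52 kb in 159-1 and 1.45 kb in 1014, and its H3K27me3 lay between 16.8 and 25.5 kb in all 4. Pax8, a thyroid and kidney factor, was the exception, with H3K27me3 only in 236L (2.27 kb) and in 236R (2.19 kb) and over 1 kb of H3K4me2 in both controls (2.69 kb in 159-1 and 1.85 kb in 1014). Named from these lists after their values were seen are Tbx1, En1 and Pax8.

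Neuroendocrine genes, which define this cancer, had both marks at 11 of 22 in 236L and 1 of 22 in each of 236R, 159-1 and 1014, beside 13.9%, 13.5%, 11.5% and 18.9% of all genes. The 1 that all lines shared was Stmn2, a microtubule regulator of neurons. Both marks in 236L and H3K4me2 only in the other 3 lines were found at 10, among them Insm1, Dll3, Nkx2-1, Foxa1, Foxa2, Prox1, Chga, Ncam1 and Uchl1, named because they belong to that count. Over all genes that pattern occurred at 1040 (4.75%). Insm1 encodes a zinc finger factor of neuroendocrine cells and Dll3 a Notch ligand. Insm1 had 6.54 kb of H3K27me3 in 236L and 0 kb in 236R, 159-1 and 1014. Its H3K4me2 covered 4.93 kb in 236L and 11.9 kb in 236R, against 13.1 kb in 159-1 and 15.3 kb in 1014, so 236L alone stood apart on both marks. The lung and foregut factors had more equal H3K4me2: Nkx2-1 had 17.6 kb in 236L and 19.8 kb in 236R, against 18.9 kb in 159-1 and 19.7 kb in 1014, with 6.09 kb of H3K27me3 in 236L alone. Foxa2 had 7.93 kb of H3K27me3 and Foxa1 8.61 kb in 236L, and 0 kb in the other 3 lines. Over the list, H3K4me2 summed to 165.6 kb in 236L and 234.6 kb in 236R, against 225.6 kb in 159-1 and 254.0 kb in 1014. Counting gene bodies alone left 7 genes with both marks in 236L, and a q of 0.001 or lower left 6.

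Macrophage genes showed the reverse pattern in the same line. H3K4me2 only was the class of 21 of 24 in 236L and 7 of 24 in 236R, against 11 in 159-1 and 11 in 1014, beside 60.7%, 60.9%, 61.9% and 54.4% of all genes. Their H3K4me2 summed to 214.6 kb in 236L and 54.5 kb in 236R, against 71.2 kb in 159-1 and 69.0 kb in 1014, and only Ccr2, a monocyte chemokine receptor, was at 0 in 236L. H3K27me3 was at 0 for 20 of the 24 in 236L and 12 in 236R, against 15 in 159-1 and 11 in 1014. Over all genes, H3K27me3 reached 1 kb at only 14.9% in 236L, 16.7% in 236R, 16.2% in 159-1 and 25.4% in 1014. Its median share of the window was 0 in each line, so these counts alone do not set macrophage genes apart. Spi1, which encodes the myeloid master regulator PU.1, had 21.8 kb of H3K4me2 in 236L and 3.55 kb in 236R, against 4.61 kb in 159-1 and 3.83 kb in 1014. Its H3K27me3 covered 0 kb in 236L and 14.3 kb in 236R, against 10.5 kb in 159-1 and 11.0 kb in 1014. The pan-leukocyte gene Ptprc (CD45) had 16.1 kb of H3K4me2 in 236L and 0.784 kb in 236R, against 0 kb in both controls. Lymphocyte genes had H3K4me2 sums of 43.1 kb in 236L and 42.4 kb in 236R, against 42.9 kb in 159-1 and 40.9 kb in 1014. Their H3K4me1 summed to 76.0 kb in 236L and 54.5 kb in 236R, against 47.6 kb in 159-1 and 50.9 kb in 1014, so 236L was highest for that mark, and their H3K27me3 to 37.5 kb in 236L and 51.1 kb in 236R, against 131.6 kb in 159-1 and 247.0 kb in 1014. The part that cells of another type in the 236L culture may have in its both-mark counts, those of neuroendocrine genes included, was not tested. Housekeeping genes had both marks at 0 of 20 in 236L and 2 of 20 in each of the other 3 lines (the proteasome genes Psmb6 and Psmc4). Of all genes, 13.9% in 236L, 13.5% in 236R, 11.5% in 159-1 and 18.9% in 1014 had both.

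**Figure D4:**
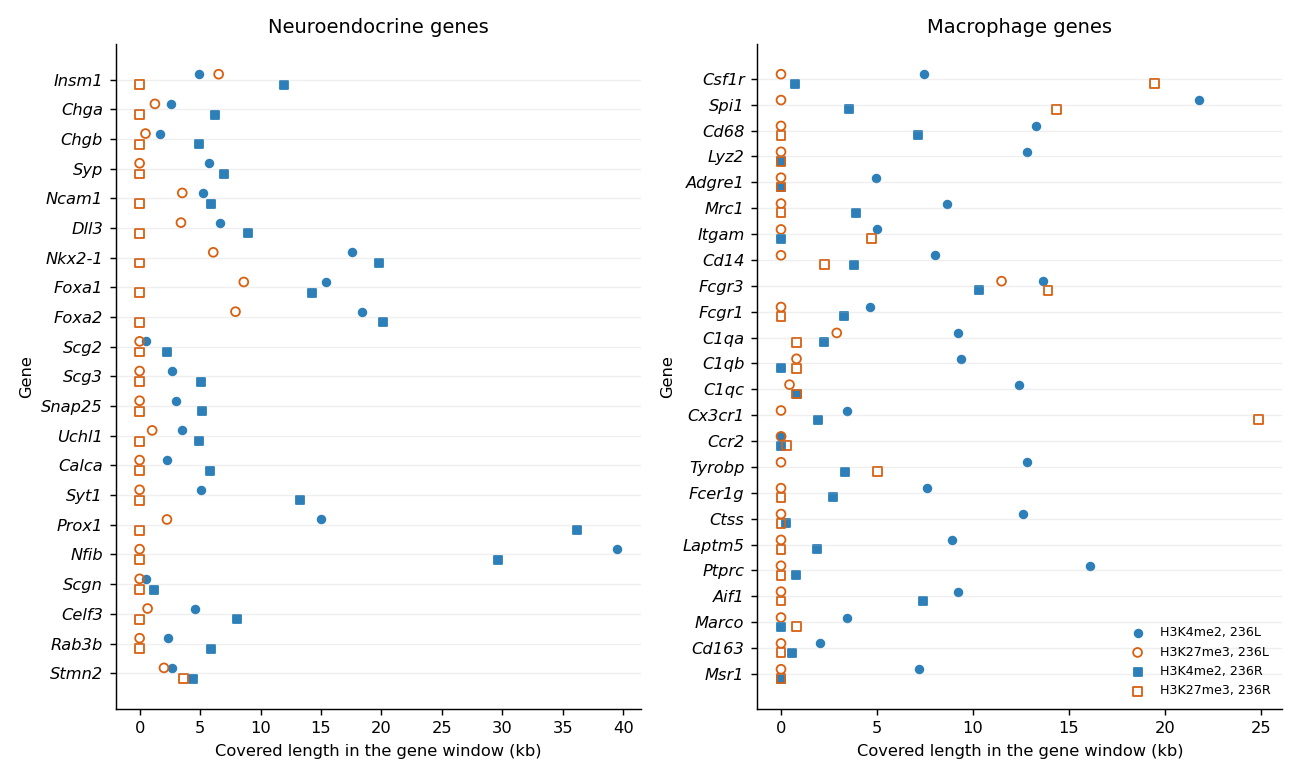
Covered length in kb of the gene window by H3K4me2 (filled) and H3K27me3 (open) for the neuroendocrine and macrophage genes named on the axes, in 236L (circles) and 236R (squares). Each point is 1 library. Insm1 has 6.54 kb of H3K27me3 in 236L and 0 kb in 236R, and Spi1 has 0 kb in 236L and 14.3 kb in 236R.

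Neuronal transcription factors had both marks at 21 of 24 in 236L and 17 in 236R, against 17 in 159-1 and 16 in 1014, beside 13.9%, 13.5%, 11.5% and 18.9% of all genes in the same order of lines. Neurod1, which names a subtype, carried H3K4me2 without enough H3K27me3 to count in both mutant lines. Its H3K27me3 was 0.461 kb in 236L and 0 kb in 236R, against 5.20 kb in 159-1 and 14.0 kb in 1014, while H3K4me2 lay between 2.82 and 4.50 kb in all 4 lines. Neurog3, an endocrine factor of the gut and pancreas, was opposite, with 6.99 kb of H3K27me3 in 236L and 9.82 kb in 236R, against 0 kb in both control lines. Its H3K4me2 was 2.87 kb in 236L and 4.98 kb in 236R, against 8.99 kb in 159-1 and 10.3 kb in 1014. For Neurod1 in H3K27me3 and Neurog3 in both marks the groups do not overlap, and both genes were singled out after their values were seen. Pou2f3, the factor of the tuft-like subtype, had both marks in all 4 lines, with 4.68 kb of H3K4me2 in 236L and 6.50 kb in 236R, against 1.05 kb in 159-1 and 2.07 kb in 1014. Its H3K27me3 was 8.22 kb in 236L and 38.2 kb in 236R, against 63.3 kb in 159-1 and 93.2 kb in 1014.

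**Figure D5:**
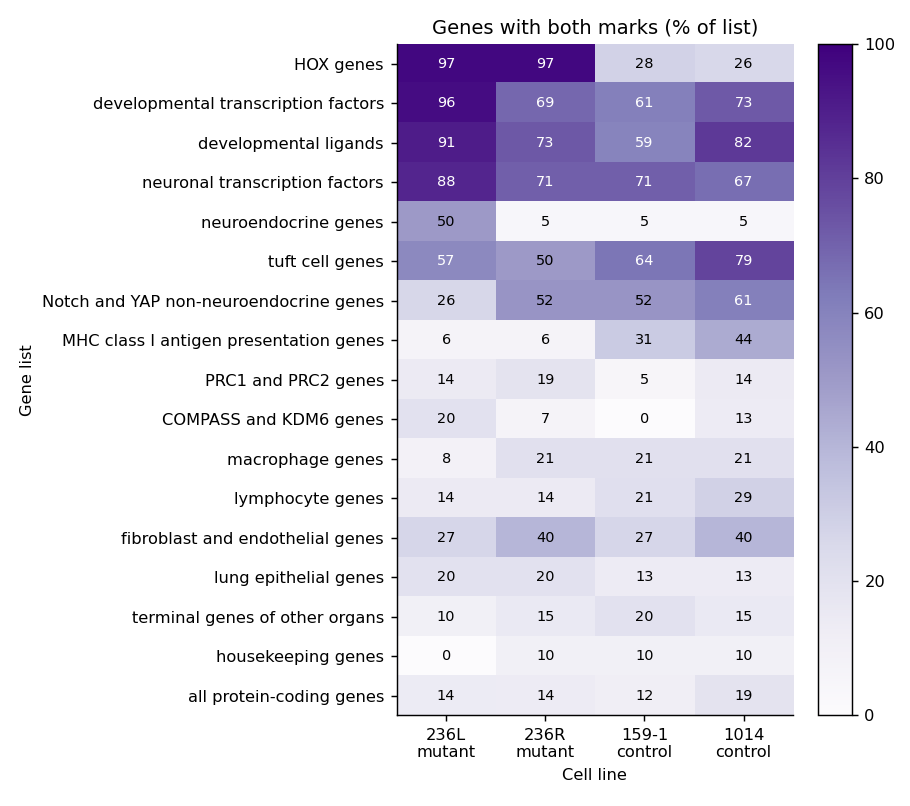
Percentage of the genes of each list with both marks, per line, with all protein-coding genes in the last row. HOX genes have both marks at 38 of 39 in each mutant line, against 11 in 159-1 and 10 in 1014, and neuroendocrine genes at 11 of 22 in 236L and 1 of 22 in each other line.

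Some genes of antigen presentation had H3K27me3 in both control lines and too little to count in both mutant lines. Over all genes H3K27me3 was present at the lowest share in 236L (14.9%), against which the counts of non-neuroendocrine genes are to be read. Of 16 genes of MHC class I presentation, 5 had both marks in both controls and H3K4me2 only in both mutant lines, a pattern found at 446 of all genes (2.04%). These were the peptide transporters Tap1 and Tap2, the immunoproteasome subunits Psmb8 and Psmb9, and Nlrc5, the transactivator of class I genes. Tap1, Tap2, Psmb8 and Psmb9 lie side by side and share windows, so they are not 4 separate sites. Nlrc5 had 0 kb of H3K27me3 in both mutant lines, against 10.4 kb in 159-1 and 61.4 kb in 1014, with H3K4me2 between 5.18 and 7.65 kb throughout. Tap1 had 12.4 kb of H3K4me2 in 236L and 9.87 kb in 236R, against 5.94 kb in 159-1 and 5.51 kb in 1014, and H3K27me3 of 0 kb in both mutant lines, against 7.05 kb in 159-1 and 22.9 kb in 1014. Among 23 Notch and YAP genes, both marks were present at 6 in 236L and 12 in 236R, against 12 in 159-1 and 14 in 1014, beside 13.9%, 13.5%, 11.5% and 18.9% of all genes. Rest, the repressor of neuronal genes, had 0 kb of H3K27me3 in 236L and 8.27 kb in 236R, against 9.70 kb in 159-1 and 18.2 kb in 1014. Axl, a receptor kinase of mesenchymal cells, followed the same order with 0, 13.9, 23.8 and 32.9 kb in 236L, 236R, 159-1 and 1014. The surface receptor gene Cd44 had 22.9 kb of H3K4me2 in 236L and 1.76 kb in 236R, against 0.994 kb in 159-1 and 0 kb in 1014.

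H3K27me3 only in both control lines and H3K4me2 in both mutant lines, with or without H3K27me3, was found at 201 genes (0.918%), and the reverse at 7 (0.032%). Of the 201, 110 had both marks in both mutant lines, 31 had H3K4me2 only and 60 differed between 236L and 236R. The count is 92 with any overlap and 132 at q of 0.001 or lower, and it is 349 without 159-1 and 346 without 236R. Ranked by the share of the window under H3K4me2 in the lower mutant line, with 1 gene for each group of overlapping windows, the first 8 were homeobox or bHLH genes of development, among them Hoxa9, Hoxd11, Emx2, Nkx2-3, Pitx1, Otx2 and Hand2. Otx2, of the forebrain, had 6.74 kb of H3K4me2 in 236L and 5.82 kb in 236R, against 0 kb in both controls, with H3K27me3 between 11.6 and 27.1 kb in all lines. Pitx1, of the hindlimb, had 6.05 kb in 236L and 6.82 kb in 236R, against 0 kb in 159-1 and 0.630 kb in 1014. Each of the 8 had over 6 kb of H3K27me3 in both mutant lines, the lowest being Hand2, of the heart and limb, with 6.89 kb in 236R. H3K4me2 only in both controls and both marks in both mutant lines occurred at 149 genes (0.681%). By length, H3K4me2 exceeded H3K27me3 by 1 kb or more in both mutant lines and fell short of it by as much in both control lines at 326 genes (1.49%), and the reverse held at 20 (0.0914%). Of these counts only the 201 was recounted with lists of equal covered length, a value not given here. The part of list length in the other counts was not tested.

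Over all genes, again with 1 gene for each group of overlapping windows, the 8 with the highest share of the window under each of the marks in both mutant lines were Skor1, Lbx1, LOC102637806, Nr2f1, Gm33099, Nkx3-2, Hoxd13 and Hoxa9. Skor1, a corepressor of the nervous system, had 14.0 kb of H3K4me2 in 236L and 17.3 kb in 236R, against 14.8 kb in 159-1 and 14.3 kb in 1014. Its H3K27me3 covered 16.4 kb in 236L and 13.0 kb in 236R, against 10.1 kb in 159-1 and 18.8 kb in 1014, so both marks were long in every line. Lbx1, a homeobox gene of muscle and spinal cord, had H3K4me2 of 10.1 kb in 236L and 11.5 kb in 236R, against 5.86 kb in 159-1 and 4.27 kb in 1014. Its H3K27me3 was 20.7 kb in 236L and 19.6 kb in 236R, against 9.75 kb in 159-1 and 24.2 kb in 1014. Nr2f1, a nuclear receptor of the brain, had 12.2 kb of H3K4me2 in 236L and 12.1 kb in 236R, against 3.69 kb in 159-1 and 3.49 kb in 1014.

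Where H3K27me3 stood without any H3K4me2 peak in either mutant line, genes were ranked by the share of the window under H3K27me3 in the lower mutant line, which favours short genes. The first 8 were Cyp21a1, Krt12, Krt27, Olfr156, Olfr1411, Olfr462, Gm31309 and Dnajc5g, thus a steroid hydroxylase, 2 keratins and 3 odorant receptors among them. Cyp21a1 had 6.90 kb in 236L and 10.2 kb in 236R, against 13.2 kb in 159-1 and 13.8 kb in 1014. Krt12 had 3.94 kb in 236L and 10.9 kb in 236R, against 15.4 kb in 159-1 and 16.1 kb in 1014. In all 8 genes 236L had the shorter cover of the mutant pair, and H3K4me2 was at 0 in the control lines too. The opposite end, H3K4me2 with no H3K27me3 peak in either mutant line, held cell cycle genes (Cdkn1b, Cdkn2c, Aurkb), the histone genes H2ac10 and H2bc12, the growth factor gene Vegfb, Prrt2 and Rhbdl1. Cdkn1b had 18.2 kb of H3K4me2 in 236L and 18.9 kb in 236R, against 17.7 kb in 159-1 and 19.2 kb in 1014. Of the engineered genes, Rb1, Trp53 and Rbl2 had H3K4me2 (5.13 to 6.77 kb) and 0 kb of H3K27me3 in both mutant lines.

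At some genes one mark led in 236L and the other in 236R, and 8 were named by the largest gap in percent of the window, with 1 gene for each group of overlapping windows. Hoxb4 to Hoxb7, whose gaps are also among the largest, are left out for their overlap with Hoxb3 or Hoxb8, so the 8 do not show how often each direction occurs. H3K27me3 led in 236L at Hoxb3, Hoxb8 and Sox1. Sox1, a neural progenitor factor, had 14.0 kb of H3K27me3 in 236L and 0 kb in the other 3 lines. H3K4me2 led in 236L at Tnfaip2, Abi3, Gm13275, H2-DMb1 and Prss43. At Prss43 that lead was short, 1.37 kb of H3K4me2 against 0.686 kb of H3K27me3, beside 20.4 kb of H3K27me3 in 236R. Tnfaip2, a gene induced by tumour necrosis factor, had 19.6 kb of H3K4me2 in 236L and 6.67 kb in 236R, against 3.33 kb in each control line. Its H3K27me3 was 0 kb in 236L and 20.5 kb in 236R, against 21.0 kb in 159-1 and 30.0 kb in 1014. At H2-DMb1, an MHC class II loading gene, H3K27me3 was 0 kb in 236L and 18.9 kb in 236R, against 19.3 kb in 159-1 and 23.9 kb in 1014. At Tnfaip2 and H2-DMb1 the H3K27me3 length in 236R lay just below that of 159-1, whereas at Hoxb3 and Hoxb8 it lay above both controls.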

How the data were processed

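Per the submitters' processing notes, the authors used Bowtie2 2.4.2, MACS3 3.0.0a7 and the build mm10, and the threshold for calling a peak is not given in the sources used here. All 14 broad peak lists are of 1 library each. A list holds positions and, as deposited by the authors, the fold enrichment (a linear ratio), the −log10 p-value and the −log10 q-value of each peak. These served to describe, rank or filter peaks within a list. Depth is unknown, so the part of depth or enrichment in the length of a list was not tested.

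Peaks of a library on chromosomes 1 to 19, X and Y were merged; 337 peaks elsewhere, over all lists, were set aside. Covered length was taken in windows of 21887 protein-coding genes (RefSeq, GRCm38.p6) and in 1 kb bins, which end at the last gene or peak of a chromosome. Groups were compared over lines by exact two-sided permutation tests, and a p measures only the spread between these lines. Calculations used Python 3.11.15, numpy 2.4.6 and pandas 2.3.3 and were tested on simulated peaks. The members and the 16 gene lists (355 genes) were chosen with earlier results of these data known. Genes were named by rule (up to 6 a list by cover in the lower mutant line, 8 per class over all genes by percent of the window, 1 for each group of overlapping windows, and the engineered genes); other list genes named were chosen after their values were seen. Inputs were not analysed here. Some genes counted in the lists are not reported by name here. Alternatives covered the gene window, the cover needed, q, list length, joined H3K27me3 peaks, exchanged control lists, sex chromosomes and each line left out.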

Additional observations from a re-analysis of the deposited data

Results flagged for a closer look

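In 18 of the 390 list and rule-named genes, H3K4me2 minus H3K27me3 cover had one sign in both mutant lines and the other in both control lines, by 1 kb or more in each line, and the difference was not tested. In 17 H3K4me2 led in the mutant lines, a pattern found at 326 of 21887 genes (1.49%), and in 1 it led in the control lines, found at 20 (0.0914%). The values are the mean of the mutant lines minus that of the control lines, in kb of H3K4me2 minus H3K27me3 cover. Among neuronal factors they were 9.49 for Neurod1, 18.5 for Neurog2, 22.2 for Lhx9 and 11.6 for Pou4f1, and −14.1 for Neurog3, the gene that went the other way. Gsc had 15.4, the tuft-related homeobox genes Hmx2 and Hmx3, which lie side by side, 11.9 and 15.0, and the growth factor genes Fgf9 and Fgf10 11.5 and 6.66. Of genes of antigen presentation, Tap1 had 20.4, its neighbour Psmb9 16.5 and Nlrc5 36.3. The Notch and YAP list gave 14.1 for Wwtr1, 9.42 for Vim and 19.1 for Cd44. Cd14, a monocyte receptor, had 9.69 and Flt1, a receptor of endothelial cells, 37.0. H3K27me3 in 1014 was the longest list, and Flt1 (−57.5 kb in 1014, −5.55 kb in 159-1) and Nlrc5 (−54.3 kb in 1014, −5.22 kb in 159-1) owe most of their size to that line.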

How the results depend on the processing

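Unknown depth and list length limit these results most. The share of H3K27me3 bins with H3K4me2 was higher in the mutant lines under every alternative run (15.1 to 32.3 percentage points, and 6.71 to 34.8 leaving out each line). The alternatives for list counts and for shares per line were chosen after seeing the data.

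Genes with both marks in both mutant lines numbered 1439 and were 2276 with any overlap, 831 from 2 kb, 745 in gene bodies alone, 728 near gene ends and 167 with q up to 0.001. At that q, H3K27me3-only genes were 1 (from 93), both-mark bins 331, H3K27me3-only bins 377, switched genes (H3K27me3 only in controls, H3K4me2 in mutants) 132, HOX genes with both marks 25, neuroendocrine genes with both marks in 236L 6, the share of H3K27me3 bins with H3K4me2 in 236R 35.8%, and the difference in both-mark bins −613. Switched genes were 92 with any overlap. In gene bodies alone, HOX genes with both marks were 21 and neuroendocrine ones in 236L 7. The difference in both-mark genes (−327.5) was 14.5 in gene bodies, 143.5 near gene ends and 1414.5 with equal list lengths. Bins with any cover gave 3933 with both marks, 65943 with H3K4me2 only and 5158 with H3K27me3 only; bins covered by 90% gave 570, 26833 and 1717. Joining H3K27me3 peaks within 5 kb gave 6919 H3K27me3-only bins. The causes were not tested. Exchanging the control H3K4me2 lists or leaving out X and Y kept the direction of the 3 differences, with 201 and 198 switched genes. Chromosome X did differ: it held 1.28% of the H3K27me3 cover in 236L and 3.85% in 236R, against 0.132% in 159-1 and 0.230% in 1014. The reason was not tested.

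Leaving out 1 mutant line, a shared count becomes that of the other line: 2961 to 3046 genes with both marks, 13292 to 13334 with H3K4me2 only and 225 to 693 with H3K27me3 only; 3266 to 5148 bins with both, 67444 to 67535 with H3K4me2 only and 7786 to 24650 with H3K27me3 only. Leaving out any line, switched genes ranged from 254 to 349 (346 without 236R), the difference in both-mark genes from −1132.5 to 477.5 and in both-mark bins from −597 to 1898 (−290.5 without 236L). No paired analysis was possible because the line names pair no mutant line with a control line.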

Other observations

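Genes with both marks made up 13.9% of all genes in 236L and 13.5% in 236R, against 11.5% in 159-1 and 18.9% in 1014, and several of the lists given here lie near those shares. Of 21 PRC1 and PRC2 genes, both marks were present at 3 in 236L and 4 in 236R, against 1 in 159-1 and 3 in 1014. Cbx8, a PRC1 reader of H3K27me3, had both marks in every line, with 10.6 kb of H3K27me3 in 236L and 8.67 kb in 236R, against 6.81 kb in 159-1 and 9.06 kb in 1014. Of 15 COMPASS and KDM6 genes, both marks were present at 3 in 236L and 1 in 236R, against 0 in 159-1 and 2 in 1014. Setd1b, an H3K4 methyltransferase gene, had 3.34 kb of H3K27me3 in 236L and 1.19 kb in 236R, against 0 kb in both control lines.

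Tuft cell genes had both marks at 8 of 14 in 236L and 7 in 236R, against 9 in 159-1 and 11 in 1014. For lung epithelial genes the counts were 3 of 15 in each mutant line, against 2 in each control line. Fibroblast and endothelial genes gave 4 of 15 in 236L and 6 in 236R, against 4 in 159-1 and 6 in 1014, and lymphocyte genes 2 of 14 in each mutant line, against 3 in 159-1 and 4 in 1014. Terminal genes of other organs gave 2 of 20 in 236L and 3 in 236R, against 4 in 159-1 and 3 in 1014. All genes had both marks at 13.9% in 236L, 13.5% in 236R, 11.5% in 159-1 and 18.9% in 1014. Several of these counts lie near those shares.

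The longest run of bins with both marks lay in the same region in all 4 lines, within chromosome 8 from 123537001 to 123625000 (mm10). The run was 86 kb long in 236L and 14 kb in 236R, against 59 kb in 159-1 and 88 kb in 1014. Of the 88 bins of that region, 86 had both marks in 236L and 75 in 236R, against 86 in 159-1 and 88 in 1014. Peaks were not filtered here for repeated sequence, and whether reads map uniquely in this region was not tested. The run is therefore not to be read as a domain of both marks. The gene table has no protein-coding gene body there, and of the gene windows that of Gas8, which ends next to it, reaches into it.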
